A study of Mus musculus with 80 samples.

Results

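Hindlimb unloading for 24 h was set against 0 h in gastrocnemius, a mixed calf muscle of posture and walking, of female C57BL6/J mice. The comparison holds the 8 libraries labelled 24 h, from mice whose hind legs were kept off the ground for that time, and the 8 labelled 0 h, the untreated controls. These 16 libraries were chosen by their labels from a table of 39, which also holds 48, 72 and 168 h of unloading, and the whole series has 80 libraries. All 11068 genes of that table are members. The other 41 libraries, from male mice under the same treatments, are in a table of their own and are used once, to test whether the 24 h change differs. The strain is the only genotype given, no transgene or further agent is named for either group, and the age of the mice is not given in the sources used here. The labels do not say that each library came from a separate mouse, so the p-values below measure the spread between these libraries.

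A muscle that bears no load shrinks within days, because its proteins are broken down faster than they are made. Breakdown runs mainly through the ubiquitin-proteasome system, in which ligases tag a protein with ubiquitin and the 26S proteasome digests it, and through autophagy, which carries cell parts to the lysosome. FoxO transcription factors and the glucocorticoid receptor switch on many of these genes, while insulin and IGF signalling through AKT and mTORC1 holds them down and drives protein synthesis.

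The deposited values are a signal per gene, treated here as reads divided by a size factor of the library, which the spacing of low values fits only in part (56.5% to 71.7% of low values whole within 0.03 reads). On that reading the estimated depth was 9.03 ± 2.02 M (mega) reads per library at 24 h and 37.2 ± 10.6 M at 0 h (mean ± SD over 8 libraries each), so 1 read was worth 1.44 to 2.99 signal units at 24 h and 0.345 to 0.683 at 0 h. The library numbers in the titles run from 27 to 48 at 24 h and from 9 to 16 at 0 h. Depth and library set therefore cannot be told apart from time. The 48 h libraries, with 37.5 ± 6.85 M reads and title numbers 1 to 8, are as deep as the 0 h libraries, and their changes from 0 h, which share the 0 h controls, are given beside the main genes. Libraries 1 and 2 at 24 h and library 7 at 0 h stood apart, with median Spearman correlations to their own group of 0.932, 0.904 and 0.916. Some results below are given without them as well, but not all. Of 241 called genes among those picked by name, 48 lost the call without these 3 libraries, and not each is marked below.

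The 8 muscle fibre markers, Ckm, Acta1, Mylpf, Tnnt3, Ttn, Pygm, Pvalb and Neb, summed to a signal of 1499800 to 2371500 per library at 24 h and 1539200 to 2110400 at 0 h, and none of them passed the test. The summed levels of 10 macrophage markers (2308.8 to 3957.9 at 24 h, 1732.3 to 3920.9 at 0 h) and of 10 endothelial markers (5024.6 to 7043.6 at 24 h, 4771 to 7434.3 at 0 h) overlapped widely. The 5 red blood cell markers summed to 12568 to 55312 at 24 h and 9739.2 to 31954 at 0 h; all 5 log2 changes were positive, with a median of 0.46, and none passed the test. No neutrophil marker was among the genes of the table. The 8 adipocyte markers summed to 12625 to 22675 at 24 h and 8004.2 to 11391 at 0 h, and Plin4, a lipid droplet protein that muscle also makes, gave 6538 to 19705 at 24 h and 4227 to 7119 at 0 h of it. Adipoq, the defining adipocyte hormone, had 71.8 to 632.8 at 24 h and 87.7 to 289.4 at 0 h. In whole muscle, fewer cells of a type and less RNA per cell cannot be told apart.

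A linear model over the 39 libraries (limma on log2 of the signal plus 1, two-sided, with Benjamini-Hochberg adjustment across the whole table and calls at an adjusted p under 0.05) found 2735 genes changed at 24 h, 24.7% of those tested. Of these, 1530 were higher than at 0 h, 13.8% of all genes, and 1205 were lower, 10.9%. The counts of list members at 24 h below stand beside these shares. The lowest of one group of 8 lay above the highest of the other for 682 genes, 6.16% of all genes, of which 421 were higher (3.8%) and 261 lower (2.36%) at 24 h. The median log2 change of all genes was 0.063. Scaling each library to the same sum gave 913 higher and 1382 lower genes, and quantile normalization gave 1160 and 1539, so the balance of higher and lower genes depends on the scaling. In the authors' deposited table, 1897 genes were higher and 1278 lower at the same threshold; 2700 genes were called in both analyses in the same direction and 0 in opposite directions.

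**Figure D1:**
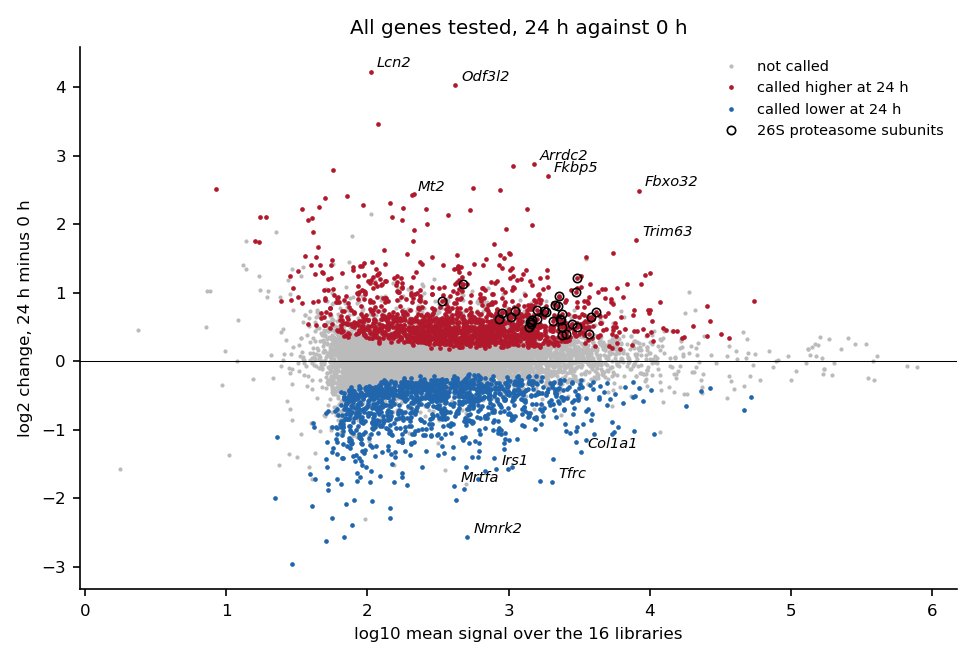
The log2 change at 24 h against 0 h (vertical) is plotted against the log10 mean signal over the 16 libraries (horizontal), with 1 point per gene, genes called higher in red, genes called lower in blue, and rings around the 32 subunits of the 26S proteasome. The rings all lie above 0, between 0.38 and 1.21, while Lcn2 and Odf3l2 reach about 4 and Nmrk2 lies at -2.56.

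Of 27 muscle ubiquitin ligases, the enzymes that choose which proteins are tagged, 8 rose and 3 fell. Of all genes 13.8% rose and 10.9% fell, so the share of ligases that fell was near that of all genes. The median log2 change of the ligases was 0.08, against 0.063 over all genes. Fbxo32, which encodes atrogin-1, the F-box ligase that marks wasting muscle, had a signal of 9237, 13711 and 20907 at 24 h (lowest, median and highest library, as in all such triplets) and 1975, 2484 and 2846 at 0 h. Every 24 h library lay far above every 0 h library, and the log2 change was 2.49 ± 0.42 (± SE, adjusted p = 4.2e-05). Trim63, which encodes MuRF1, the ligase that tags myosin and other thick-filament proteins, had 6829, 11212 and 23434 at 24 h and 2868, 3504 and 3929 at 0 h. Its groups did not overlap either, and it rose by 1.77 ± 0.39 (adjusted p = 0.0010). At 48 h both remained high, at 3.16 and 2.501 on the log2 scale against 0 h. Trim63, Ubb and the proteasome subunits Psmb6, Psmb7 and Psmd6 lie outside the rule for named genes and were chosen after their values were seen.

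The promoter of Trim63 holds a FoxO motif and a glucocorticoid receptor motif side by side. The RefSeq window (GRCm38.p6, chr4:134314870-134315169, plus strand, 250 bases before to 50 after the start) is shown because it holds both motifs. Capitals mark the glucocorticoid response element (ACA, any 3 bases, TGT, any base, C), found at bases 43 to 53 on the opposite strand and at bases 45 to 55 on the strand shown, which overlap each other, and after it the FoxO element TGTTTAC at bases 57 to 63; an antioxidant response element, TGANNNNGC, at bases 111 to 119 overlaps neither.
Trim63: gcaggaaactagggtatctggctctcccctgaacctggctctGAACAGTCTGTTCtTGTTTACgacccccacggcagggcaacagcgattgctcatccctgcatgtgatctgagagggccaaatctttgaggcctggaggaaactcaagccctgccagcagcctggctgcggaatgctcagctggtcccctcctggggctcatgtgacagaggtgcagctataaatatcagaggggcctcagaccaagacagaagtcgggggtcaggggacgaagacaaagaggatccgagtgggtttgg
Over all 32851 promoter windows of that table, searched on both strands, 3.65% hold the FoxO element and 3.11% the glucocorticoid element. The windows of genes called higher held them in 3.6% and 2.72%, and those of genes called lower in 1.98% and 2.24%, where the windows of all tested genes held them in 2.49% and 2.1%. A match describes letters in the window and shows no binding, and Fbxo32 has no entry in the table.

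Trim54 (MuRF3) and Fbxo31 rose with non-overlapping groups, by 0.84 ± 0.13 and 0.80 ± 0.12 (adjusted p = 1.4e-05 and 9.3e-06), whereas Trim55 (MuRF2), the third MuRF protein, was lower. Trim55 had 666, 805 and 992 at 24 h and 1219, 1366 and 1669.5 at 0 h. All 8 libraries at 24 h lay below the 0 h range, and it fell by 0.80 on the log2 scale (SE 0.09, adjusted p = 1.2e-07). Fbxl22, an F-box protein of the muscle Z-disc, fell to 13.6, 33.7 and 112 at 24 h, against 76.6, 114 and 175 at 0 h, a log2 change of -1.62 ± 0.35 (adjusted p = 0.00087). Its lowest 24 h value stands on few reads, at 1.44 to 2.99 signal units per read, and the groups overlapped. Znrf1, the third ligase that fell, changed by -0.55 ± 0.10. The other 16 ligases did not pass the test.

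**Figure D2:**
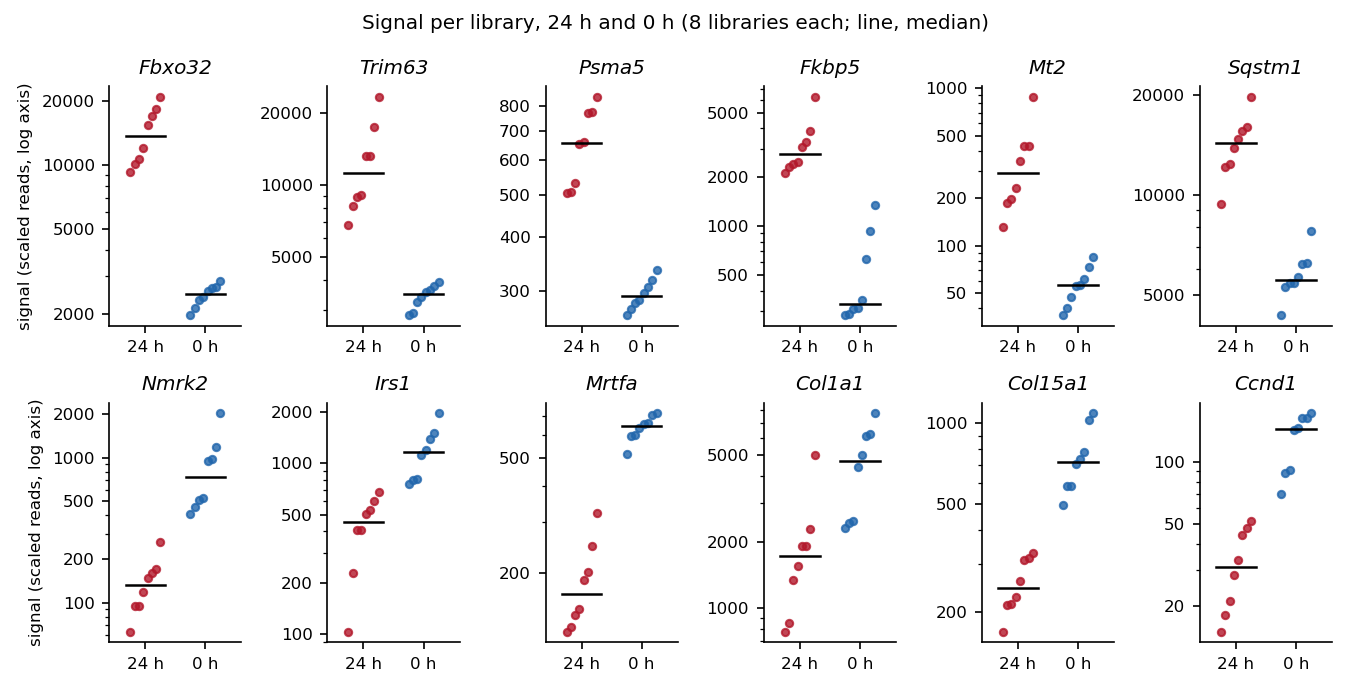
Signal per library on a log axis for 12 genes, with the 8 libraries at 24 h (red, left) and the 8 at 0 h (blue, right) and a line at each median. For 11 of the 12 genes the groups do not overlap; for Col1a1 they do.

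All 32 tested subunits of the 26S proteasome rose, where 13.8% of all genes did. Their median log2 change was 0.63, against 0.063 over all genes, with a range from 0.38 (Psmb6) to 1.21 (Psmd8), and for 24 of them the groups did not overlap, where 6.16% of all genes had none. Psmd8, a lid subunit of the regulatory particle, had 3284, 4210.1 and 5486 at 24 h and 1510.1, 1907 and 2198 at 0 h, and rose by 1.21 ± 0.17 (adjusted p = 2.2e-06). Psma5, one of the alpha ring that forms the gate of the core, had 504, 656 and 838 at 24 h and 265, 292 and 336 at 0 h. It rose by 1.12 ± 0.17 (adjusted p = 1.2e-05), and its lowest 24 h library lay above every 0 h library. Psmc1, an ATPase of the base that unfolds the substrate, rose by 0.82 ± 0.11 with the smallest p of the list (adjusted p = 7.1e-07); its signal was 2357, 2709.7 and 3082 at 24 h and 1406, 1500.3 and 1803 at 0 h. The smallest changes were in the catalytic beta subunits Psmb6 and Psmb7, at 0.38 ± 0.13 and 0.40 ± 0.11, and in Psmd6, at 0.39 ± 0.11. Without the 3 libraries that stood apart 29 of the 32 were called, and with the library sums made equal 30 were. At 48 h the median change of the list from the same 0 h libraries was 1.02. The median of 0.63 at 24 h stands beside 0.48 in the 41-library table.

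**Figure D3:**
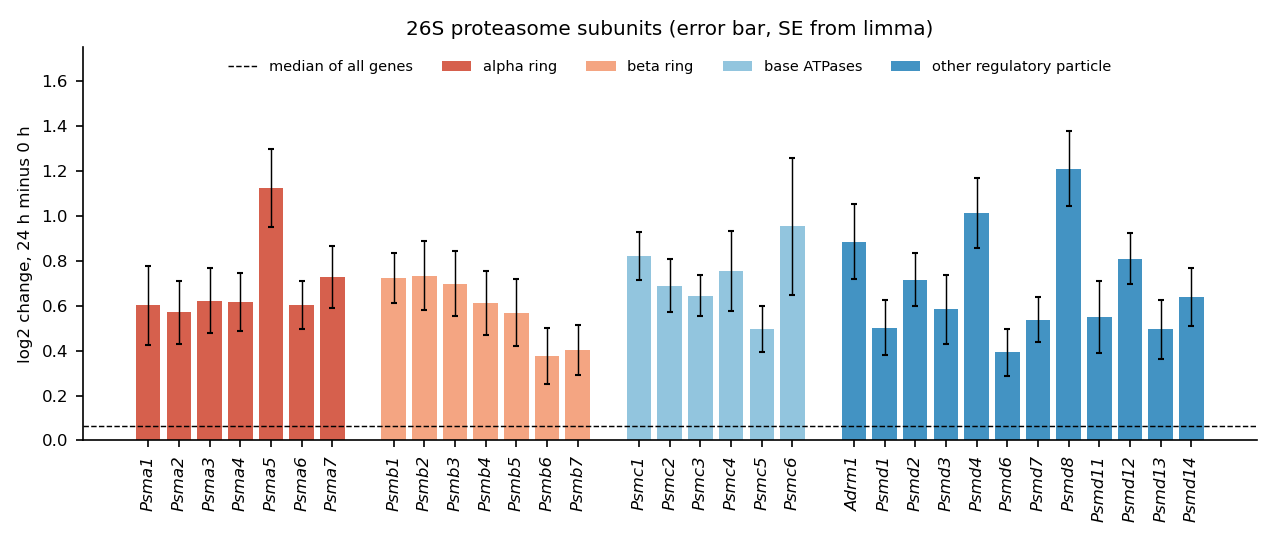
Log2 change at 24 h against 0 h (bars, with SE from limma) for the 32 subunits of the 26S proteasome, grouped as the alpha ring, the beta ring, the ATPases of the base and the other subunits of the regulatory particle; the dashed line is the median of all genes, 0.063. Every bar stands above that line, Psmd8, Psma5 and Psmd4 are the tallest, and Psmb6, Psmd6 and Psmb7 the shortest.

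The factors NRF1 and NRF2 act on proteasome genes through antioxidant response elements, TGANNNNGC. Of the 28 promoter windows of 26 proteasome genes in the table, 57.1% hold this motif on either strand, against 43.1% of the windows of tested genes and 41.3% of all windows, a motif short enough to be common. Psma5 (chr3:108256676-108256975, plus strand) is shown as the alpha subunit with the largest change. Its match, in capitals, runs from base 259 to 267 on the opposite strand, just after the start. It overlaps a match of the metal response pattern, TGCNCNC, at bases 262 to 268.
Psma5: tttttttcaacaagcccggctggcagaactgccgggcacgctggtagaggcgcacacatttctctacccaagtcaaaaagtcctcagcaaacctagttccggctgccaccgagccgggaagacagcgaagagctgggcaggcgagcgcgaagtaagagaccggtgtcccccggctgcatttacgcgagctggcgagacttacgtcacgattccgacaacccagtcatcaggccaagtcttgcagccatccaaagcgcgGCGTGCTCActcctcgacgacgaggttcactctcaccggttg

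Beside the proteasome, 13 of 28 genes of ubiquitin, its activating and conjugating enzymes and the VCP segregase rose and 1, Ube2d1, fell by 0.31 on the log2 scale. Ubb, a polyubiquitin gene, had 13511, 15154 and 17064 at 24 h and 7109, 8473 and 9415 at 0 h, and its groups did not overlap. It rose by 0.87 ± 0.22 (adjusted p = 0.0035). Ube4a, an E4 enzyme that lengthens ubiquitin chains, had 1098, 1669 and 2241 at 24 h and 630.4, 716 and 953 at 0 h and rose by 1.19 ± 0.15 (adjusted p = 2.6e-07). Vcp, the ATPase that pulls tagged proteins out of complexes, and its cofactors Ufd1 and Nploc4 rose by 0.70 ± 0.11, 0.71 ± 0.11 and 1.08 ± 0.20, each without overlap. The 9 tested genes of the immunoproteasome, a form of the core with other catalytic subunits, and of MHC class I gave 0 calls by limma and 0 in the authors' deposited table, with 1 of the 9 at an unadjusted p under 0.05 and a median log2 change of -0.18.

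FoxO factors and genes known as their targets rose in 9 of 16 cases and fell in none, with a median of 0.70. Klf15, Cebpd and Pdk4 are also in the glucocorticoid list and Bnip3 in the autophagy list, so the counts of these lists are not independent. Foxo1 had 369, 474 and 1257 at 24 h and 193, 225 and 275 at 0 h, and Foxo3 had 623, 812 and 1093 at 24 h and 432, 457 and 528 at 0 h. For both the groups did not overlap, with log2 changes of 1.36 ± 0.27 (adjusted p = 0.00035) and 0.82 ± 0.13 (adjusted p = 1.4e-05). Libraries 7 and 8 at 24 h had the highest Foxo1 signal, above 1000. Depp1, a FoxO target, averaged 363 ± 121 at 24 h and 65.9 ± 24.1 at 0 h (SD, n = 8 each), without overlap, and rose by 2.44 ± 0.49 (adjusted p = 0.00037). Cebpd, a transcription factor that answers to FoxO, glucocorticoids and cytokines, had 267, 672 and 1006 at 24 h and 82.01, 118 and 220.0 at 0 h, a change of 2.14 ± 0.38 (adjusted p = 9.0e-05). Without the 3 libraries that stood apart 10 of the 16 rose. Of 14 promoter windows of 13 of these genes, 14.3% hold the FoxO element, against 2.49% of the windows of tested genes. The matches are in Sesn1 and Txnip, and the window of Depp1 has none. Trim63 and Eda2r, whose windows are printed for this motif, are not members of the list.

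Autophagy genes rose in 15 of 27 cases, and none fell. Sqstm1, which encodes the receptor p62 that hands ubiquitin-tagged cargo to the autophagosome, had 9400.3, 14323 and 19757 at 24 h and 4359.7, 5557 and 7824 at 0 h. Its groups did not overlap, and it rose by 1.28 ± 0.20 (adjusted p = 1.4e-05). Map1lc3b, the membrane tag of the autophagosome, had 3846, 4519.6 and 4835 at 24 h and 2065, 2395 and 2812 at 0 h, also without overlap, and rose by 0.88 ± 0.12 (adjusted p = 2.1e-06). Ulk1, the kinase that starts autophagy, and the mitophagy receptor Bnip3 rose by 0.66 ± 0.15 and 0.87 ± 0.16. The other 11 that rose changed by 0.30 (Atg2a) to 0.54 (Gabarapl1).
Of 24 lysosomal genes, 8 rose and none fell. Ctsl, the cysteine protease cathepsin L, had 3499.7, 4060.2 and 5836 at 24 h and 1875, 1977 and 2571 at 0 h and rose by 1.08 ± 0.18 (adjusted p = 3.3e-05). Npc1, which exports cholesterol from the lysosome, had 1146, 1405 and 2448 at 24 h and 408, 491 and 576 at 0 h and rose by 1.58 ± 0.25 (adjusted p = 1.5e-05). Neither gene overlapped between the groups. With equal library sums the counts were 10 of 27 for autophagy and 6 of 24 for the lysosome.

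Growth arrest genes and p53 targets rose in 8 of 17 cases and fell in 1. Eda2r, the ectodysplasin A2 receptor and a p53 target, had 658, 1292 and 2640.1 at 24 h and 154, 237 and 347 at 0 h. It rose by 2.502 ± 0.34 (adjusted p = 1.4e-06), with every 24 h library above every 0 h library. Cdkn1a, which encodes the cell cycle inhibitor p21, had 740.2, 1191 and 2161 at 24 h and 214, 336 and 686 at 0 h and rose by 1.72 ± 0.29 (adjusted p = 4.5e-05). Gadd45g, Trp53inp1 and Phlda3 rose by 1.55 ± 0.32, 1.52 ± 0.42 and 0.86 ± 0.17, whereas Zmat3, itself a p53 target, fell by 0.74 on the log2 scale without overlap (adjusted p = 0.00022). Ccng1, the member with the highest signal, changed by -0.11 ± 0.18 (adjusted p = 0.70). The promoter of Eda2r (chrX:97377160-97377459, minus strand) is shown as that of a strong riser with a FoxO element, in capitals at bases 126 to 132; an antioxidant response element at bases 114 to 122 does not touch it.
Eda2r: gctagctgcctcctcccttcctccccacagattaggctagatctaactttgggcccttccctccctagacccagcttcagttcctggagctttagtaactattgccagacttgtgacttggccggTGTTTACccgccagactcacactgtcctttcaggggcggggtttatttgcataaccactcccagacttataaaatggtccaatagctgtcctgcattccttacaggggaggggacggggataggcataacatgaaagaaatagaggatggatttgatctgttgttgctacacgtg

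Known targets of the glucocorticoid receptor had the highest median of the lists shown here, 1.13, and 13 of 19 rose while none fell. Lcn2, the secreted iron-binding protein lipocalin 2, showed the largest change among the named genes, with 91.4, 183 and 351 at 24 h and 4.07, 8.52 and 20.7 at 0 h and a log2 change of 4.22 ± 0.38 (adjusted p = 4.9e-10). A gene needs a value of about 100 in some library to be among the rows. Lcn2 did not reach that in any 0 h library, nor did Mt2, Odf3l2, Pnmt and Acot1, described below. Such genes are among the rows only through unloaded libraries, which limits the ranking of their changes. Fkbp5, a co-chaperone of the receptor and a common readout of its activity, had 2112, 2784 and 6260.5 at 24 h and 283, 331 and 1352 at 0 h. The groups did not overlap although 3 of the 0 h libraries, 3, 4 and 5, were above the other 5, and Fkbp5 rose by 2.704 ± 0.28 (adjusted p = 9.5e-09). Glul, glutamine synthetase, had 6416, 7941 and 11295 at 24 h and 2184, 2638 and 4435 at 0 h and rose by 1.57 ± 0.16 (adjusted p = 4.5e-09). Tsc22d3 (GILZ), a leucine zipper protein, and the sulfotransferase Sult1a1 rose by 1.24 ± 0.17 and 1.13 ± 0.16 without overlap. At 48 h, against the same controls, Fkbp5, Lcn2 and Glul stood at 2.603, 3.28 and 1.09 on the log2 scale. Without the 3 libraries that stood apart 15 of 19 were called. The list's median at 24 h, 1.13, stands beside 0.64 in the 41-library table, and no member differed between the tables at an adjusted p under 0.05.

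Of 24 windows of 15 of these genes, 12.5% hold that glucocorticoid response element, against 2.1% of the windows of tested genes and 3.11% of all windows; the matches are in Glul, Lcn2 and Sgk1. The windows of Lcn2 (chr2:32387690-32387989, minus strand) and Glul (chr1:153899679-153899978, plus strand) are shown with the match in capitals. It covers 11 bases from base 99 of Lcn2 and, on the opposite strand, bases 224 to 234 of Glul. In Glul it overlaps a match of the metal response pattern TGCNCNC at bases 220 to 226, and another such match lies at bases 158 to 164. No other motif searched lies in the Lcn2 window. Fkbp5 has no match in its window, which says only that these letters are not in those bases.
Lcn2: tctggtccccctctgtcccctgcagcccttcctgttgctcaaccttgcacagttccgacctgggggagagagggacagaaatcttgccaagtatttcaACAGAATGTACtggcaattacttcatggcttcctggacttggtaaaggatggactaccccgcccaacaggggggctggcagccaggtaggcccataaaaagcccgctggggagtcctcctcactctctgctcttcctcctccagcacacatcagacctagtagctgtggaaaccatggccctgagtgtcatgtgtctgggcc
Glul: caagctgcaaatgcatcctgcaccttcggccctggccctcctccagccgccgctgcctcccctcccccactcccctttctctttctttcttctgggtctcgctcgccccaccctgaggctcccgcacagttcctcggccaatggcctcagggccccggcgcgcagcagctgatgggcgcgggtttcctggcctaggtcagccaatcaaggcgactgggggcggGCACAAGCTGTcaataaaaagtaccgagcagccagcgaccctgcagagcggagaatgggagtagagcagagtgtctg

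Ddit4, which encodes REDD1, a brake on mTORC1 that glucocorticoids induce, had 203, 671 and 1953 at 24 h and 109.9, 134 and 399 at 0 h. Its groups overlapped through library 6 at 0 h, the highest control, and it rose by 2.21 ± 0.49 (adjusted p = 0.0011). The same 0 h library was highest for Glul and for Per1, at 1281, and for the alpha-arrestin Arrdc2. Alpha-arrestins are adaptors that pull membrane proteins into the cell, and all 4 tested members rose. Arrdc2 had 1459, 2477 and 4067 at 24 h and 106, 277 and 1509 at 0 h and rose by 2.87 ± 0.34 (adjusted p = 1.2e-07), or by 3.18 without that library. Arrdc3 rose by 1.56 ± 0.35 and Arrdc4 by 0.61 ± 0.14. Txnip, which curbs glucose uptake, changed by 0.48 ± 0.16 (adjusted p = 0.028) and was not called when library 1, 5, 6 or 8 at 0 h or library 4 or 8 at 24 h was left out (adjusted p up to 0.076). Of 18 clock genes 5 rose and 1 fell, where 13.8% of all genes rose and 10.9% fell. Among the 5 were Per1 and the repressor Cry2, by 1.37 ± 0.26 and 0.86 ± 0.18; the repressor Nr1d1 fell by 0.72 on the log2 scale. Per1 had 919.8, 1157 and 1894 at 24 h and 182, 458 and 1281 at 0 h, a wider relative spread among the controls. The hour of tissue collection is not given in the sources used here, and its part in these values was not tested.

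The metallothioneins Mt1 and Mt2, small proteins that bind zinc and copper and answer to metals and glucocorticoids, rose together. Mt1 had 221, 433 and 647 at 24 h and 59.1, 108.3 and 122 at 0 h, and Mt2 had 132, 288 and 881 at 24 h and 36.4, 56.3 and 84.8 at 0 h. No 24 h library of either gene fell into the 0 h range, and the log2 changes were 2.003 ± 0.28 (adjusted p = 3.5e-06) and 2.42 ± 0.36 (adjusted p = 6.1e-06). Slc30a2, a zinc exporter, rose by 0.87 ± 0.25 and Slc39a10, a zinc importer, fell by 0.67 on the log2 scale; Mtf1, the factor that binds metal response elements, changed by -0.32 ± 0.13 (adjusted p = 0.061). In the 41-library table Mt1 and Mt2 changed by 0.39 ± 0.28 and 0.70 ± 0.36, and the difference between the tables was 1.61 ± 0.39 for Mt1 (adjusted p = 0.079) and 1.72 ± 0.50 for Mt2 (adjusted p = 0.31), neither past the threshold. At 48 h Mt1 and Mt2 stood at 1.88 and 2.26 against the same controls. Both promoters (chr8:94178839-94179138 and chr8:94172368-94172667, plus strand) are shown with matches of the metal response pattern TGCNCNC in capitals. There are 3 in Mt1, on the strand shown, and 6 in Mt2, 3 on each strand. The pattern leaves the base after TGC open, so a match need not be a working element. That base is A or G in these matches, except at bases 73 to 79 and 138 to 144 of Mt2, where it is T.
Mt1: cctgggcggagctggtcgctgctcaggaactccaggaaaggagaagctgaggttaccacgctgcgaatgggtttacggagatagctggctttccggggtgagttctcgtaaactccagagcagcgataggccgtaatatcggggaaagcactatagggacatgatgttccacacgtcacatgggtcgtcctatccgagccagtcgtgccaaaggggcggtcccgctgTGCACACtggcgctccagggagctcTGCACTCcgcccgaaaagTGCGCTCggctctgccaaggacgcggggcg
Mt2: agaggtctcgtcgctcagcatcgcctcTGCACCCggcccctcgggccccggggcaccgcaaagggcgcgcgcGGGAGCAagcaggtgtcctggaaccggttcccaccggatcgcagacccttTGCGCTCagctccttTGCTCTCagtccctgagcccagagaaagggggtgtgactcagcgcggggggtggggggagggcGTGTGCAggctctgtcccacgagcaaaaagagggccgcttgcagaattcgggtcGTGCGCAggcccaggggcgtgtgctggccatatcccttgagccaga
At least 1 such match is in 51% of all windows, at least 3 are in 7.1% and at least 6 in 0.225%; among windows of tested genes the shares are 60.4%, 10.5% and 0.383%. The Mt1 window also holds the glucocorticoid element at bases 157 to 167 and 159 to 169, on opposite strands, and the Mt2 window an antioxidant element at bases 172 to 180, neither of them overlapping a metal element.

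The counts of this paragraph stand beside 13.8% of all genes higher and 10.9% lower. In insulin and IGF signalling 3 of 21 genes rose, a share near that of all genes, and 7 fell. Irs1, the docking protein that passes the signal of both receptors to PI3-kinase, fell to 103.8, 456 and 676 at 24 h, against 762, 1159 and 1957 at 0 h. All 24 h libraries lay below all 0 h libraries, and the change was -1.58 ± 0.31 (adjusted p = 0.00024). Pik3r1, the regulatory subunit of PI3-kinase, had 1310.2, 2416 and 3299 at 24 h and 283, 618 and 892 at 0 h and rose by 1.98 ± 0.26 (adjusted p = 7.8e-07). Igfbp5 and Grb14, a binding protein of IGF and an inhibitor of the insulin receptor, fell by 1.07 and 0.97 on the log2 scale. Without the 3 libraries that stood apart 2 rose and 4 fell. Of 18 genes of mTORC1 and its brakes 4 rose, among them Eif4ebp1, the repressor of cap-dependent translation that mTORC1 inactivates. Eif4ebp1 had 912, 1322 and 1692 at 24 h and 338, 435 and 525.9 at 0 h and rose by 1.55 ± 0.25 without overlap (adjusted p = 1.8e-05). Il6ra, the receptor chain for interleukin 6, had 212, 393 and 911 at 24 h and 62.2, 83.97 and 100.98 at 0 h and rose by 2.23 ± 0.32 (adjusted p = 5.2e-06). Of 19 genes of myostatin, activin and SMAD signalling 1, the receptor Acvr1b, rose by 0.76 ± 0.16 and 3 fell, among them the ligand Gdf11 and the binding protein Fstl1, by 0.85 and 0.81 on the log2 scale.

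**Figure D4:**
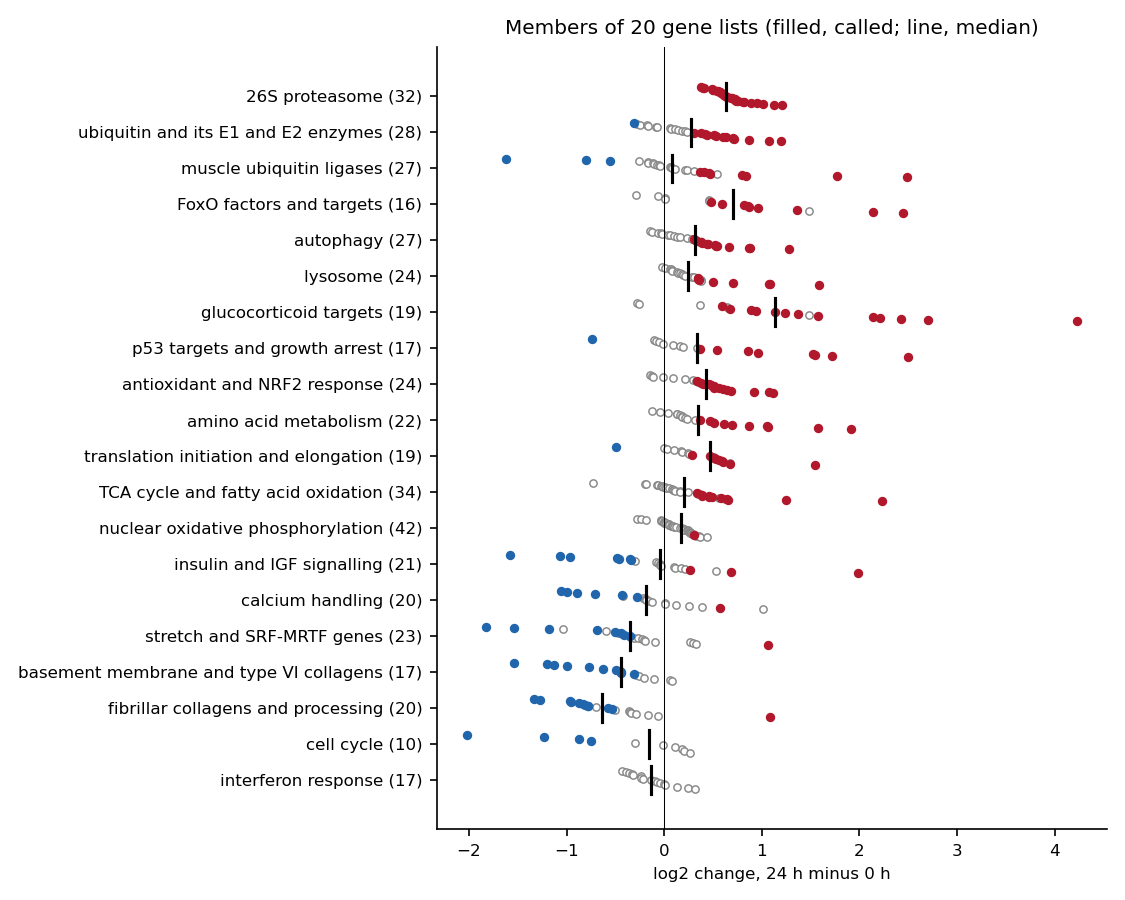
Log2 change at 24 h against 0 h of the members of 20 gene lists, with 1 point per gene (red, called higher; blue, called lower; open, not called), a line at the median and the number of tested members in parentheses. The proteasome list is red throughout, most called members of the collagen and stretch lists are blue, and the oxidative phosphorylation and interferon lists are nearly all open.

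Among the other genes with the largest rises were a sperm tail gene and enzymes of methylation. Odf3l2, a relative of an outer dense fibre protein of the sperm tail, had 331, 503 and 2438 at 24 h and 18.0, 30.6 and 77.6 at 0 h, a change of 4.03 ± 0.52 (adjusted p = 6.7e-07). Library 8 at 24 h was far above the other 7. Pnmt, the enzyme that turns noradrenaline into adrenaline, had 167, 201 and 319 at 24 h and 11.2, 16.6 and 35.95 at 0 h and rose by 3.45 ± 0.33 (adjusted p = 1.7e-09). Inmt, a methyltransferase of indole amines, had 631, 983 and 1301 at 24 h and 101.8, 161 and 241 at 0 h and rose by 2.53 ± 0.20, with the smallest p of the genes described here (adjusted p = 2.1e-11). None of these 3 overlapped between the groups, and Odf3l2 and Pnmt are among the rows only through unloaded libraries. Cep85l, a centrosomal protein, rose by 2.22 ± 0.50.

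Of 21 genes of the integrated stress and unfolded protein responses 5 rose, where 13.8% of all genes did, and 3 fell, a share near the 10.9% of all genes. Chac1, which degrades glutathione and is induced by ATF4, had 784, 1746 and 2782 at 24 h and 41.1, 274 and 981 at 0 h. The groups overlapped, the control values were widely spread, and it rose by 2.85 ± 0.44 (adjusted p = 1.2e-05). Atf4 itself, the transcription factor of the integrated stress response, rose by 0.67 ± 0.15 without overlap (adjusted p = 0.0012), as did Ppp1r15a and Herpud1, by 1.13 ± 0.29 and 0.54 ± 0.10, while the endoplasmic reticulum foldases Pdia4 and Pdia6 fell by 0.45 and 0.39 on the log2 scale. Cirbp and Rbm3, the cold-inducible RNA-binding proteins, rose by 0.82 ± 0.11 and 1.04 ± 0.16 (adjusted p = 2.0e-06 and 1.2e-05).

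Genes of amino acid metabolism, which include enzymes of breakdown and synthesis, transporters and polyamine enzymes, rose in 10 of 22 cases and none fell. Prodh, the proline dehydrogenase of mitochondria, had 269, 314 and 464 at 24 h and 64.2, 80.8 and 132 at 0 h, without overlap, and rose by 1.92 ± 0.16 (adjusted p = 1.4e-10). Gpt2, which makes alanine, and Psat1, a serine synthesis enzyme, rose by 1.06 ± 0.14 and 1.05 ± 0.22, and Bckdha of branched-chain breakdown by 0.69 ± 0.12. Antioxidant and NRF2 genes rose in 14 of 24 cases and none fell. Sod1, the cytosolic superoxide dismutase, had 1309.7, 1451 and 3055 at 24 h and 941, 1002 and 1209.6 at 0 h and rose by 0.68 ± 0.14 (adjusted p = 0.00033); Hmox1, heme oxygenase 1, rose by 1.12 ± 0.28 (adjusted p = 0.0029) and Gpx3 by 0.64 ± 0.14. With equal library sums 9 of the 24 were called.

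Fatty acid oxidation and the mitochondrial respiratory chain gave different counts. Of 34 TCA cycle and fatty acid oxidation genes 11 rose and none fell, with a median of 0.21. Acot1, a cytosolic acyl-CoA thioesterase, rose most, with 16.4, 55.3 and 111 at 24 h and 3.19, 11.1 and 18.5 at 0 h, a change of 2.23 ± 0.44 (adjusted p = 0.00026) at low signal and with overlap. The carnitine carrier Slc25a20 and the dehydrogenase Acadl rose by 0.64 ± 0.14 and 0.58 ± 0.16. Of 42 nuclear-encoded oxidative phosphorylation genes, 1 rose and none fell, with a median of 0.17 and 34 positive changes. The higher count was 0 without any 1 of libraries 1, 2, 3, 6 and 8 at 0 h and 1, 2 and 4 at 24 h, and 2, 3 and 5 without library 3, 5 and 6 at 24 h. Equal library sums gave 0 higher and 1 lower and quantile normalization 0 higher and 2 lower, while the authors' deposited table had 6 higher and 0 lower. Of 15 mitochondrially encoded genes, 0 passed by limma, 0 in the authors' deposited table, and 1 at an unadjusted p under 0.05. The regulators of mitochondrial genes fell in 4 of 17 cases and rose in 3, where 10.9% of all genes fell and 13.8% rose. Ppara, the nuclear receptor that drives fatty acid oxidation, had 8.02, 51.5 and 90.04 at 24 h and 48.5, 152 and 257 at 0 h and fell by 1.77 on the log2 scale (adjusted p = 0.00070). Ppargc1b, the coactivator PGC-1 beta, had 21.6, 46.4 and 110.3 at 24 h and 81.96, 131 and 176 at 0 h and fell by 1.45 on the log2 scale (adjusted p = 9.9e-05). For both, the groups overlapped. Perm1, a muscle partner of PGC-1, fell by 1.02 on that scale.

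Among genes of protein synthesis, 9 of 19 initiation and elongation factors and their regulators, Eif4ebp1 among them, rose and 1, Eif4e, the cap-binding protein that Eif4ebp1 restrains, fell by 0.50 on the log2 scale without overlap (adjusted p = 0.00068). The initiation factors Eif1 and Eif3b rose by 0.68 ± 0.14 and 0.53 ± 0.11, also without overlap. Of 25 ribosome biogenesis factors 8 rose, such as Npm1, a nucleolar chaperone with 1000.1, 1130.1 and 1448 at 24 h and 361, 753 and 819.7 at 0 h and a change of 0.82 ± 0.23 (adjusted p = 0.0078). That count was 3 without the 3 libraries that stood apart, where the adjusted p of Npm1 was 0.070, and 5 without library 1 at 0 h or without library 6 at 24 h. The 6 of 27 ribosomal protein genes that rose, by 0.34 (Rps14) to 0.50 (Rpl27), were 0 without library 1 or without library 2 at 24 h and 3 without library 6 at 0 h.

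Nmrk2, the muscle kinase that makes the NAD precursor nicotinamide mononucleotide from its riboside, had the lowest log2 change of the genes named here. Its signal was 63.3, 133 and 261 at 24 h and 407, 743 and 2027 at 0 h. The groups did not overlap, and it fell by 2.56 on the log2 scale (SE 0.40, adjusted p = 1.6e-05). In the 41-library table its change was -0.80 ± 0.46, and the difference between the tables, -1.77 ± 0.64, did not pass (adjusted p = 0.54). At 48 h Nmrk2 stood at -2.49 and Irs1 at -1.04 against 0 h. Of the other 11 genes of NAD synthesis and the sirtuins, 3 fell and none rose, and Nampt, the main salvage enzyme, changed by 0.18 ± 0.18. The 3 calls beside Nmrk2 were fragile: the list's count of 4 was 1, Nmrk2, without the 3 libraries that stood apart, and 2 without any 1 of libraries 4, 5, 7 and 8 at 0 h and 3, 5, 6 and 7 at 24 h.

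Genes of stretch sensing and of the actin-regulated coactivators MRTF and their partner SRF fell in 8 of 23 cases and rose in 1. The list mixes these factors themselves with genes they act on and with other stretch genes. Mrtfa, which encodes MRTF-A, had 125, 169 and 323 at 24 h and 516, 647 and 716 at 0 h. Every 24 h library was below every control, and Mrtfa fell by 1.82 on the log2 scale (SE 0.29, adjusted p = 1.8e-05). At 48 h its change against 0 h was -1.90 on that scale. Actg1, cytoplasmic gamma actin and an SRF target, had 1305, 1750.4 and 2297 at 24 h and 3333, 4189 and 4817 at 0 h and fell by 1.18 on that scale (adjusted p = 5.6e-08). Srf, Actb and Csrp3, a stretch-sensing Z-disc protein, fell by 0.51, 0.44 and 1.54. Ccn1, a secreted matrix protein and a target of both SRF and YAP, rose by 1.06 ± 0.17 without overlap (adjusted p = 2.8e-05). The muscle actin Acta1 changed by -0.27 ± 0.14 (adjusted p = 0.15).

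The counts of calcium handling and fibre type genes stand beside 10.9% of all genes lower and 13.8% higher. Calcium handling genes fell in 6 of 20 cases and rose in 1. Casq1, the calcium store of the fast sarcoplasmic reticulum, fell to 26516, 35027 and 42385 at 24 h, against 50514, 54729.8 and 72233 at 0 h, a change of -0.70 ± 0.21 without overlap (adjusted p = 0.011). Jph2, which ties the reticulum to the T-tubule, and the kinase Camk2a fell by 1.06 and 0.89 on the log2 scale, also without overlap. Few fibre type genes passed: 2 of 14 slow genes, Casq2 and Csrp3, fell, and of 16 fast genes Casq1 fell and the myosin kinase Mylk2 rose, a call lost without library 1 or 4 at 0 h or library 8 at 24 h (adjusted p up to 0.068). Myh4 and Myh2, the fast myosin heavy chains IIb and IIa, changed by -0.09 ± 0.16 (adjusted p = 0.72) and -0.54 ± 0.42 (adjusted p = 0.37).

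The calls among genes of the membrane, the nerve contact and muscle identity, read beside 13.8% of all genes higher and 10.9% lower, changed with the libraries used. Of 14 genes of the dystrophin complex and membrane 2 rose and 4 fell, or 0 and 2 without the 3 libraries that stood apart, and of 18 genes of denervation and the neuromuscular junction 2 rose and 4 fell, or 1 and 1 without those libraries. The lower count of the dystrophin list was 2 without library 1 or 3 at 0 h or library 1 at 24 h, and its higher count was 1 without library 1 at 0 h, without library 1 or 2 at 24 h or with quantile normalization. The lower count of the junction list was 2 with a mean signal of at least 200, and its higher count was 1 with quantile normalization or equal library sums. Sspn, sarcospan of the dystrophin complex, had 928, 1076 and 1219.8 at 24 h and 1412, 1534 and 1829.7 at 0 h and fell by 0.56 on the log2 scale without overlap (adjusted p = 0.00012, or 0.0021 without the 3 libraries). Hdac4, a histone deacetylase that responds to denervation, rose by 0.54 ± 0.11 with overlap (adjusted p = 0.00026, or 0.00058 without the 3 libraries). Of 14 myogenic factors 1 rose and 2 fell, or 3 and 1 without the 3 libraries; the lower count was also 1 without any 1 of libraries 1, 3, 4, 5 and 8 at 0 h and 1 and 2 at 24 h. Of 3 tested satellite cell markers 2, Cdh15 and Chodl, were called higher, or 1 without the 3 libraries; their summed level was 815.59 to 1118.6 at 24 h and 727.43 to 900.75 at 0 h. The defining marker Pax7 is not among the rows, and the part of these cells in the myogenic values was not tested. Myf6, which encodes the factor MRF4, had 1361, 1792 and 2066 at 24 h and 825, 1036 and 1268 at 0 h and rose by 0.77 ± 0.17 without overlap (adjusted p = 0.00070). Of 10 myosin heavy chains 1 rose and 3 fell, among them Myh10, a non-muscle chain, by 1.24 on the log2 scale (adjusted p = 0.00011).

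Collagens and the enzymes that process them gave more lower than higher calls. Of 20 genes of fibrillar collagens and their processing 11 fell, where 10.9% of all genes did, and 1 rose, with a median log2 change of -0.64. Serpinh1, the collagen chaperone HSP47, had 413, 533 and 715 at 24 h and 899.9, 1371 and 1684 at 0 h and fell by 1.27 on the log2 scale without overlap (SE 0.14, adjusted p = 2.3e-08). Col1a1, a chain of type I collagen, had 777, 1727 and 4980.2 at 24 h and 2325, 4711 and 7740.4 at 0 h. Library 6 at 24 h lay above the 0 h median, the groups overlapped, and Col1a1 fell by 1.33 on that scale (SE 0.33, adjusted p = 0.0032). Col3a1, of type III collagen, had 1279.9, 1537 and 4643 at 24 h and 1850.3, 4065 and 6349 at 0 h and fell by 0.96 (adjusted p = 0.013). Lox, which crosslinks collagen, was the member that rose, by 1.09 ± 0.30 (adjusted p = 0.0070). Without the 3 libraries that stood apart 6 of the 20 fell, Serpinh1 and Col1a1 among them, and Col3a1 was no longer called (adjusted p = 0.097). Of 17 genes of the basement membrane and type VI collagen 11 fell and none rose, or 8 without those libraries. Col15a1, a collagen of the basement membrane zone, had 169, 244 and 331 at 24 h and 499, 721 and 1088 at 0 h and fell by 1.54 on the log2 scale (SE 0.20, adjusted p = 7.1e-07) without overlap, and Col6a2 and Col6a3 fell by 1.197 and 1.13. The markers of fibro-adipogenic progenitors, which make much of this matrix, summed to 29219 to 52345 at 24 h and 27799 to 45269 at 0 h; 2 of 8, Col3a1 and Lum, fell, and Pdgfra, their defining receptor, had 257.2 to 874.5 at 24 h and 433 to 671.6 at 0 h. The 5 tenocyte markers summed to 1785.3 to 7591.3 at 24 h and 3788.8 to 10175 at 0 h, and 1 of them, Scx, was called lower. The calls of Lum and Scx were lost when any 1 of 7 and of 14 libraries was left out (adjusted p up to 0.079 and 0.087). The part of tendon or of cell number in the collagen values was not tested.

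Other genes with large decreases had varied roles. Tfrc, the transferrin receptor that brings iron into the cell, had 544, 801 and 1408 at 24 h and 1177, 3159 and 5217 at 0 h and fell by 1.77 on the log2 scale (SE 0.36, adjusted p = 0.00045), with overlap, while Slc40a1, the iron exporter ferroportin, rose by 0.69 ± 0.15. Ccnd1, cyclin D1, had 15.1, 30.8 and 51.9 at 24 h and 69.99, 144 and 171 at 0 h and fell by 2.02 on that scale (adjusted p = 2.0e-06) without overlap. Ccnd1 did not reach the value of about 100 that a row needs in any 24 h library, which limits the ranking of its change. Of 23 listed cell cycle genes only 10 are among the rows, and of these 4 fell and none rose. Mdga1, Pdzd7, Nrep, Efr3b, Fgfbp1, Mettl21c, Slc41a3 and Map2k6 were also among the 15 lowest with a mean signal of at least 100, at log2 changes from -2.29 to -1.55, each without overlap. Of these, Mettl21c is a muscle protein methyltransferase and Map2k6 a kinase that activates p38. The 17 interferon response genes gave 0 calls by limma and 0 in the authors' deposited table, with 3 at an unadjusted p under 0.05; equal library sums called 2 lower and quantile normalization 3.

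Comparing 48 h with 24 h in the same table asks where the next time point differs, and shares the 24 h libraries with the main comparison. The 48 h libraries had 37.5 ± 6.85 M estimated reads and title numbers 1 to 8. Those at 24 h had 9.03 ± 2.02 M and title numbers 27 to 48. Depth and library set therefore cannot be told apart from time at this step either. Of all genes 737 were called, 6.66%, with 345 higher (3.12%) and 392 lower (3.54%) at 48 h. With equal library sums, which moved the median of all genes to 0.101, 831 were higher and 199 lower. The number of calls rested on few libraries: it was 306 without library 1 at 24 h, 344 without library 2, 428 without library 4, and 227, 298 and 380 without libraries 6, 7 and 4 at 48 h.

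Nos1, the neuronal nitric oxide synthase held at the membrane by the dystrophin complex, had 589, 1127 and 2436 at 24 h and 926, 1049.8 and 1393 at 0 h. It did not pass at 24 h (0.09 ± 0.24, adjusted p = 0.81) and was higher at 48 h than at 24 h by 1.38 (adjusted p = 0.0015). Pim1, a survival kinase, and Panx1, a membrane channel, were higher at that step by 0.99 and 1.07. Bdh1, the mitochondrial ketone body enzyme, had 181, 296 and 582.1 at 24 h and 386, 499.8 and 783 at 0 h, a 24 h change of -0.73 ± 0.40 that did not pass (adjusted p = 0.18). It was lower at 48 h than at 24 h by 2.05 on the log2 scale (adjusted p = 0.0029). Cish, an inhibitor of cytokine signalling, the myosin-binding protein Mybph and Fabp3, the heart-type fatty acid carrier, were lower by 2.56, 2.06 and 1.78. These 7 genes kept their call without the 3 libraries that stood apart.

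Fbxo32 and Trim63 changed by 0.67 and 0.73 between 24 and 48 h, short of the threshold (adjusted p = 0.33 and 0.25). Of the 32 proteasome subunits, 9 rose further and none fell, or 5 without the 3 libraries that stood apart, and between 2 (without library 6 at 48 h) and 19 (without library 1 at 48 h) when 1 library was left out. Of 42 nuclear oxidative phosphorylation genes 18 were called lower at 48 h than at 24 h and none higher. That count was 1 without the 3 libraries that stood apart, 9 with equal library sums, 3 without library 6 at 48 h, 5 without library 4 or 7 at 48 h or library 2 or 4 at 24 h, 6 without library 1 at 24 h, and 29 without library 6 at 24 h. Among TCA cycle and fatty acid oxidation genes 13 of 34 were called lower, or 6 without the 3 libraries that stood apart, and from 6 (without library 2 at 24 h, or 6 or 7 at 48 h) to 19 (without library 5 or 6 at 24 h) when 1 library was left out.

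**Figure D5:**
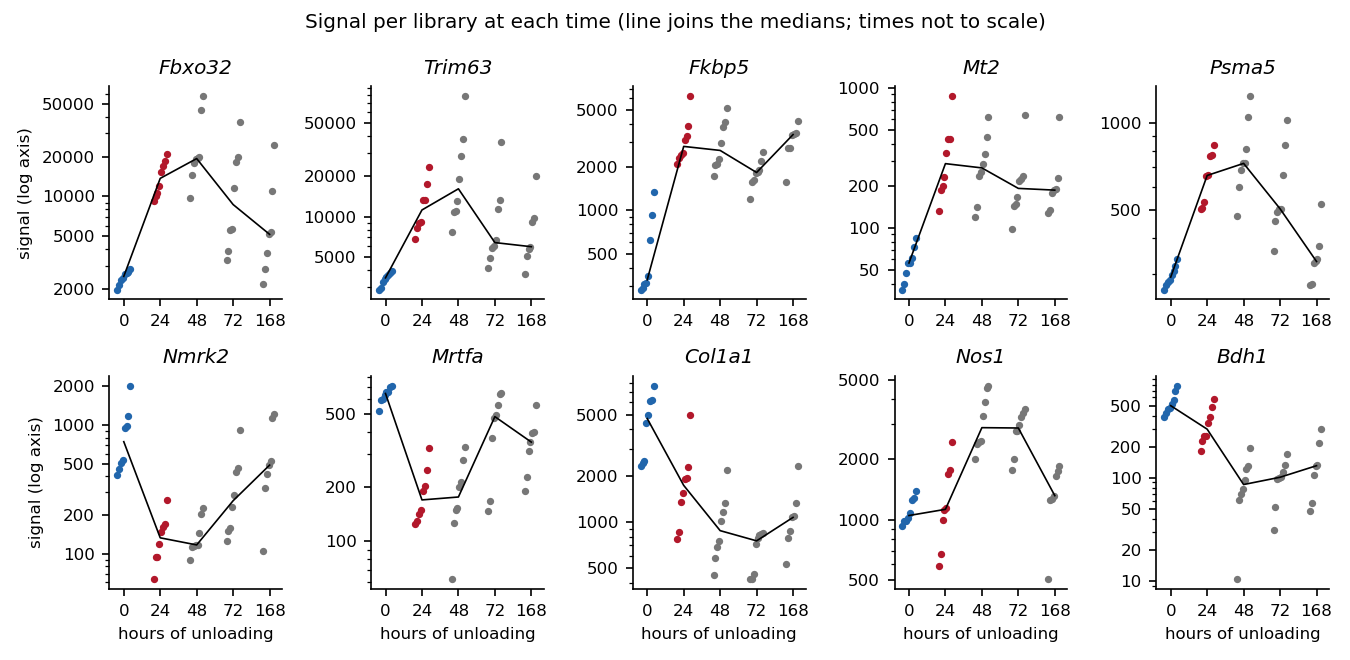
Signal per library on a log axis at 0, 24, 48, 72 and 168 h of unloading for 10 genes, with a line joining the medians (0 h in blue, 24 h in red; 8 libraries per time, 7 at 168 h). Fkbp5, Mt2 and Mrtfa have most of their change by 24 h, while Nos1 and Bdh1 lie far from their 24 h level at 48 h.

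The 24 h change was last compared with that of the 41-library table, in a joint model of all 80 libraries over the 10964 shared genes. The 41-library table has 8 libraries at 24 h and 7 at 0 h, with 37.2 ± 2.97 and 28.3 ± 7.11 M estimated reads, so depth there does not drop at 24 h. The difference passed for 6 genes, 0.0547%, and was positive for 4 (0.0365%) and negative for 2 (0.0182%). Prodh changed by 1.92 ± 0.15 here and 0.64 ± 0.16 there, a difference of 1.28 ± 0.22 (adjusted p = 0.0016). Inmt changed by 2.53 ± 0.19 here and 1.24 ± 0.20 there, a difference of 1.29 ± 0.28 (adjusted p = 0.029). Rilpl1, a protein of lysosome and cilium traffic, had 3661, 4393.4 and 6251 at 24 h and 2177, 2557 and 2794 at 0 h here, and its changes were 0.87 ± 0.09 and 0.27 ± 0.09 (adjusted p of the difference = 0.026). Rhobtb1, an atypical small GTPase, had 269.8, 346 and 497 at 24 h and 551, 783 and 1009 at 0 h here and changed by -1.17 ± 0.14, against -0.23 ± 0.15 there (adjusted p of the difference = 0.034). The other 2, Gm11827 and B230312C02Rik, have provisional symbols. Without the 3 libraries that stood apart 1 gene was called, so the count rests on few libraries. The model of the 39 libraries alone called 2735 genes at 24 h, 24.7% of those tested. The joint model, with its spread estimated over all 80 libraries, called 3729 genes here, 34% of the shared genes, and 2129 there, 19.4%. Both called 1659 in the same direction, 44.5% of those called here and 77.9% of those called there, and 96.3% of the genes called here had the same sign there, against 78% of all shared genes.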

How the data were processed

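RNA of whole gastrocnemius was sequenced as total RNA libraries. The deposited values are a signal; how the authors made it is not given in the sources used here, and it was treated as reads per gene divided by 1 size factor per library, from the spacing of low values. STAR 2.7.8a, DESeq2 and Partek, and the builds mm10 and mm39, are named in the submitters' processing notes, without role or order. A gene that does not reach a value of about 100 in any library is not among the rows. Every column of both tables was matched to a sample by its title, and 0 were left over. The ratio of 24 h over 0 h and its adjusted p-value come from the authors' deposited table and are named so where printed.

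The value of 1 read was found from the spacing of low values, which gives the estimated depth if that reading holds; 56.5% to 71.7% of low values were whole within 0.03 reads, against 6% expected of random values, so whole reads were not recovered and no count model was run. Log2(signal + 1) was fitted with limma 3.58.1 in R 4.3.3, with 5 group means over the 39 libraries and moderated variances with trend and robust options; p-values were adjusted by the Benjamini-Hochberg method over 11068 genes and called under 0.05. Fold changes on this scale understate changes of low genes. A joint model of 80 libraries over 10964 shared genes gave the difference of the 24 h changes between tables, which the authors normalized separately. The procedure was tested on simulated data.

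Genes were named by rule: the 15 highest and 15 lowest called changes with a mean signal of at least 100 and no provisional symbol, up to 6 members of each list by p with any that moved against their list or had its highest signal, and the 6 highest and lowest at the other comparisons. A few of these genes are left out of the text. The 45 gene lists, 12 marker lists and the comparison were chosen with earlier results of these data known. Of 840 tested genes in the gene lists, 29 are in 2 or more lists. Promoter windows of 300 bases came from RefSeq (GRCm38.p6), for 8091 of 11052 tested symbols. Alternatives were a pseudocount of 10, a mean signal of at least 200, scaling to the library sum, quantile normalization, median ratio rescaling, array weights, plain moderation, only the 16 libraries, a threshold of 0.01, and leaving out each library or the 3 that stood apart. Figures were drawn with matplotlib 3.10.9.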

Additional observations from a re-analysis of the deposited data

Results flagged for a closer look

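Libraries of each group were examined for 1 value far from the other 7 in the key genes and quality measures (Dixon's criterion on unlogged values, 120 groups). Of these, 11 were far, 9.17%. The nominal rate of about 1 in 20 holds for independent, normally spread values, which these were not shown to be. Library 6 at 0 h was the highest control for Ddit4 (398.8), Glul (4435) and Arrdc2 (1509). Without it their log2 changes at 24 h were 2.41, 1.67 and 3.18. Of the libraries compared, only this library has an r in its title, and what the letter means is not given. Library 8 at 24 h was far above the others for Fkbp5 (6260) and Odf3l2 (2438), and library 5 at 24 h for Mt2 (880.8). Library 7 at 24 h was highest for Cdkn1a (2161), library 4 at 24 h for Ppargc1b (110.3) and library 6 at 24 h for Col1a1 (4980). Library 7 at 0 h was highest of the controls for Ctsl (2571) and had the lowest median Spearman correlation with its group, 0.9159.

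The 24 h change differed between the 39-library and the 41-library table, by the direct test in the joint model, for Prodh (difference 1.275 on the log2 scale), Inmt (1.295), Rilpl1 (0.6005) and Rhobtb1 (-0.9405), among the 56 key genes examined.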

How the results depend on the processing

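The 2735 calls at 24 h against 0 h (1530 higher, 1205 lower) became 1492 at a threshold of 0.01 (826 higher, 666 lower). The higher count was 913 with equal library sums and 2300 with array weights, and the lower count 724 with a mean signal of at least 200, which leaves fewer genes tested. Leaving out 1 library gave 2336 to 2748 calls, 1310 to 1536 higher and 1001 to 1212 lower. The 737 calls at 48 h against 24 h were 286 with array weights, 191 without the 3 libraries that stood apart and 227 to 1094 with 1 library left out. The 6 differences between tables were 2 with quantile normalization, 29 with array weights, 10 with plain moderation, 1 without the 3 libraries and 2 to 12 with 1 library left out. Beyond fewer genes or samples, the cause was not tested. Of 376 named genes 241 were called; 43 of these lost the call in at least 1 of 16 settings that leave out a library, and 48 without the 3 libraries. More genes were called lower than higher with equal library sums (913 higher, 1382 lower), quantile normalization (1160, 1539) and median ratio rescaling (1269, 1412), and more higher than lower under the other fits run. At 24 h the depth, 6.41 to 11.8 M estimated reads, limits the lowest genes, with 39 to 208 genes under 10 reads per library. No paired analysis was possible because the labels give no replicate numbers, and those used here follow accession order only.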
